A study of Mus musculus with 12 samples.

Results

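The beta-defensin genes were taken as all genes of the count table whose mouse symbol starts with Defb and a number, which gave 43 of 49315 genes, 42 of them coding and 1 a pseudogene (Defb44-ps). They were chosen by a rule that already named where their transcripts are high and low: high in the 3 libraries of flox mice given vehicle and in replicate 1 of flox mice given MTX, and nearly absent elsewhere. Their levels across these libraries are therefore given as a description. Fits across all genes are quoted for them only as counts of calls, from which nothing is read.

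Beta-defensins are small, cationic, secreted peptides held together by 3 disulfide bonds between 6 cysteines, and many of them can kill bacteria and fungi. In males a large part of the family is made by the epithelium of the epididymis, the duct in which sperm mature, where the peptides bind to the sperm surface and form part of its coat. The epididymal fat pad lies directly against this duct.

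RNA was sequenced from the epididymal white adipose tissue (eWAT) of 12 male mice, with 1 library per mouse and 3 mice in each of 4 groups. Mir181a2b2 flox/flox mice (flox), in which the Mir181a-2 and Mir181b-2 genes are flanked by loxP sites, and Mir181a2b2 -/- mice (KO), which lack both microRNA genes in every tissue, each received vehicle or methotrexate (MTX, 1 mg/kg) by weekly injection into the peritoneum over 12 weeks of a high-fat diet (HFD) with 60% fat. The hairpin genes at the deleted locus were at 0 counts throughout, flox mice included, apart from Mir181a-2 with 2 counts in replicate 4 of the flox MTX group, so these counts do not check the genotype labels. The mice were age-matched, cage-matched littermates. No Cre transgene is named for these mice, and their age is not given in the sources used here. The labels give polyA RNA and the methods give ribosomal RNA depletion, and the library type that applies is not known here. The question the samples were collected for was how loss of these microRNAs and MTX alter the transcriptome of obese fat. Counted reads ranged from 19495310 to 23976469 per library, so that a count of 0 allows a level of up to 3 counts, or 0.118 to 0.188 CPM (the reads of a gene scaled to a common library size), a limit that covers counting error only. All 15 adipocyte genes checked had more than 3 counts in every library.

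The 43 genes lie in 4 groups on GRCm38: 3 genes on chromosome 1 within 55.1 kb, 11 on chromosome 2 within 164 kb, 24 on chromosome 8 over 2973.9 kb, and 5 on chromosome 14 within 80.6 kb. Of the 42 coding genes, 38 carried in their GENCODE M21 coding sequence the 6-cysteine pattern of the family, here with 5 to 7, 3 to 4, 9 to 13 and 4 to 6 residues between consecutive cysteines and the last 2 cysteines adjacent. Defb8, Defb33, Defb46 and Defb50 did not match it. The coding stretches from the first to the last of these cysteines are shown for the members on which the results turn, 5′ to 3′ on the coding strand, with the cysteine codons of the pattern in capitals. Defb22 (chr2:152485663-152490138, minus strand), Defb28 (chr2:152518255-152521447, plus) and Defb23 (chr2:152459055-152464620, minus) had the most counts. Defb42 (chr14:63046991-63058149, plus) and Defb37 (chr8:18986233-18991055, minus) led the other chromosomes, Defb1 (chr8:21776599-21795185, plus) is the member known from kidney and many other epithelia, and Defb30 (chr14:63034087-63049960, minus) and Defb19 (chr2:152576086-152580312, minus) had the largest change in share of the family's counts relative to flox vehicle replicate 1, in flox vehicle replicates 3 and 4 respectively.
Defb22: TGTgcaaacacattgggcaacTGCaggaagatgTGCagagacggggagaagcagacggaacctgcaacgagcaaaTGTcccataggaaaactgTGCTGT
Defb28: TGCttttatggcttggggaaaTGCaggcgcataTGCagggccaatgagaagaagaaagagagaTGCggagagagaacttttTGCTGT
Defb23: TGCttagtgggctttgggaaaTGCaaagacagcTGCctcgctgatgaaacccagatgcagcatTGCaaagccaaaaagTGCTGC
Defb42: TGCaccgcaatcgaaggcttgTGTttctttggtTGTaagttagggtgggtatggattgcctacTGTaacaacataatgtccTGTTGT
Defb37: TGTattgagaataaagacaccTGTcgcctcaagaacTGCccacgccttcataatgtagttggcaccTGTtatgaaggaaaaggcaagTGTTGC
Defb1: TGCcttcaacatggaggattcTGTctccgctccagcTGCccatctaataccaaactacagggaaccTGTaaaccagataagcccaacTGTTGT
Defb30: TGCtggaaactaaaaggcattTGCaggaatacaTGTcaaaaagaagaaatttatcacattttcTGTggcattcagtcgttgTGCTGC
Defb19: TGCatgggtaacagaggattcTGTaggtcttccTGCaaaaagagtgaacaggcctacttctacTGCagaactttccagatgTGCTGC
Defb28, Defb42, Defb30 and Defb19 shared the commonest spacing of 6, 3, 9 and 5 residues, which 15 members had. Defb37 and Defb1 shared the spacing of 6, 4, 9 and 6 residues found in 9 members. Defb22, whose product coats sperm with a sugar-rich layer, stood alone with 13 residues between the pair of cysteines where the other members have 9.

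Summed over the family, flox vehicle replicates 1, 3 and 4 had 1231, 4333 and 356 CPM (1973 ± 2090 CPM, SD, n = 3), or 0.126%, 0.470% and 0.0364% of all counts. The KO vehicle libraries had 4.98, 3.55 and 3.04 CPM (3.86 ± 1.01, n = 3). The flox MTX libraries differed among themselves, with 158 CPM in replicate 1, 1.32 CPM in replicate 2 and 6.12 CPM in replicate 4. Replicate 1 of the flox MTX group thus lay below the lowest flox vehicle library and far above the other 8 libraries, which spanned 1.04 to 6.12 CPM. KO MTX replicates 2, 3 and 4 had 1.04, 4.55 and 1.135 CPM (2.24 ± 2.00, n = 3). Flox MTX replicates 2 and 4 lay near the KO MTX range. In bulk tissue, fewer cells of a type and less RNA per cell cannot be told apart.

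**Figure D1:**
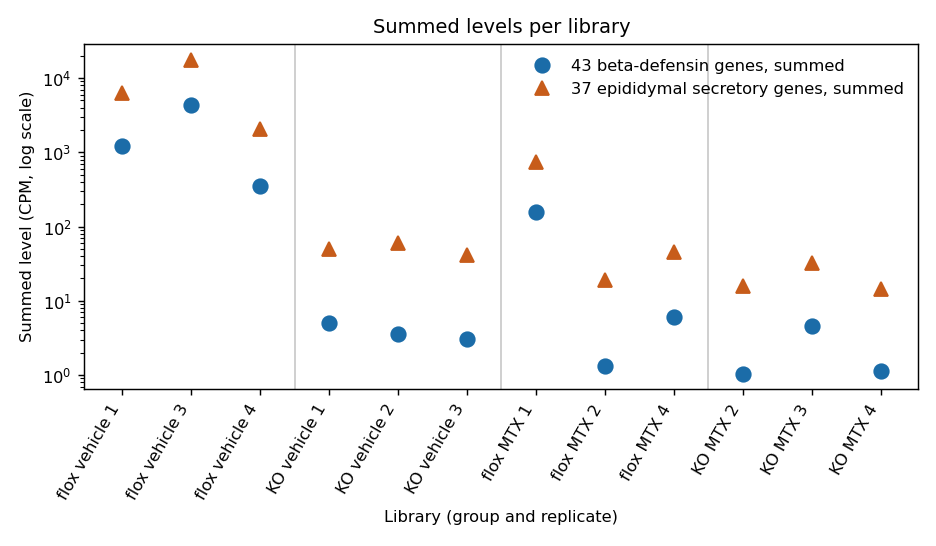
Summed level in CPM (log axis) of the 43 beta-defensin genes (circles) and of 37 epididymal secretory genes that are not beta-defensins (triangles), 1 point per library, with the 4 groups divided by lines. Both sums were high in the 3 flox vehicle libraries and in flox MTX replicate 1, and the beta-defensin sum stayed between 1.04 and 6.12 CPM in the other 8.

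Detection was broad in the flox vehicle mice. More than 3 counts were found for 29, 34 and 25 members in flox vehicle replicates 1, 3 and 4, for 35 members in at least 1 of the 3, and for 23 members in all of them. In flox MTX replicate 1, 17 members exceeded 3 counts, and all 17 were among those 23. The other libraries had 2 to 11 such members each. In all, 16 members passed 3 counts in some library of that set of 8, and none did so in all 6 KO libraries. Of the 8 members that never passed 3 counts, Defb5, Defb6, Defb7, Defb8 and Defb46, which lie near each other on chromosome 8, were at 0 in all 12 libraries. Defb3, known as a member that infection induces in airway epithelium, had 1 count in each of flox vehicle replicates 1 and 3 and none elsewhere. Defb18 and Defb50 had 3 counts each over the 12 libraries, and Defb50 with at most 2 in a library lay just outside the limit. Just inside it, Defb34 had 4 counts in flox vehicle replicate 3 and 0 in the others. Defb45 had 6 counts in flox vehicle replicate 4 and 1 in replicate 1, and Defb12 had 8 counts in flox vehicle replicate 3 and 1 in KO vehicle replicate 3.

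**Figure D2:**
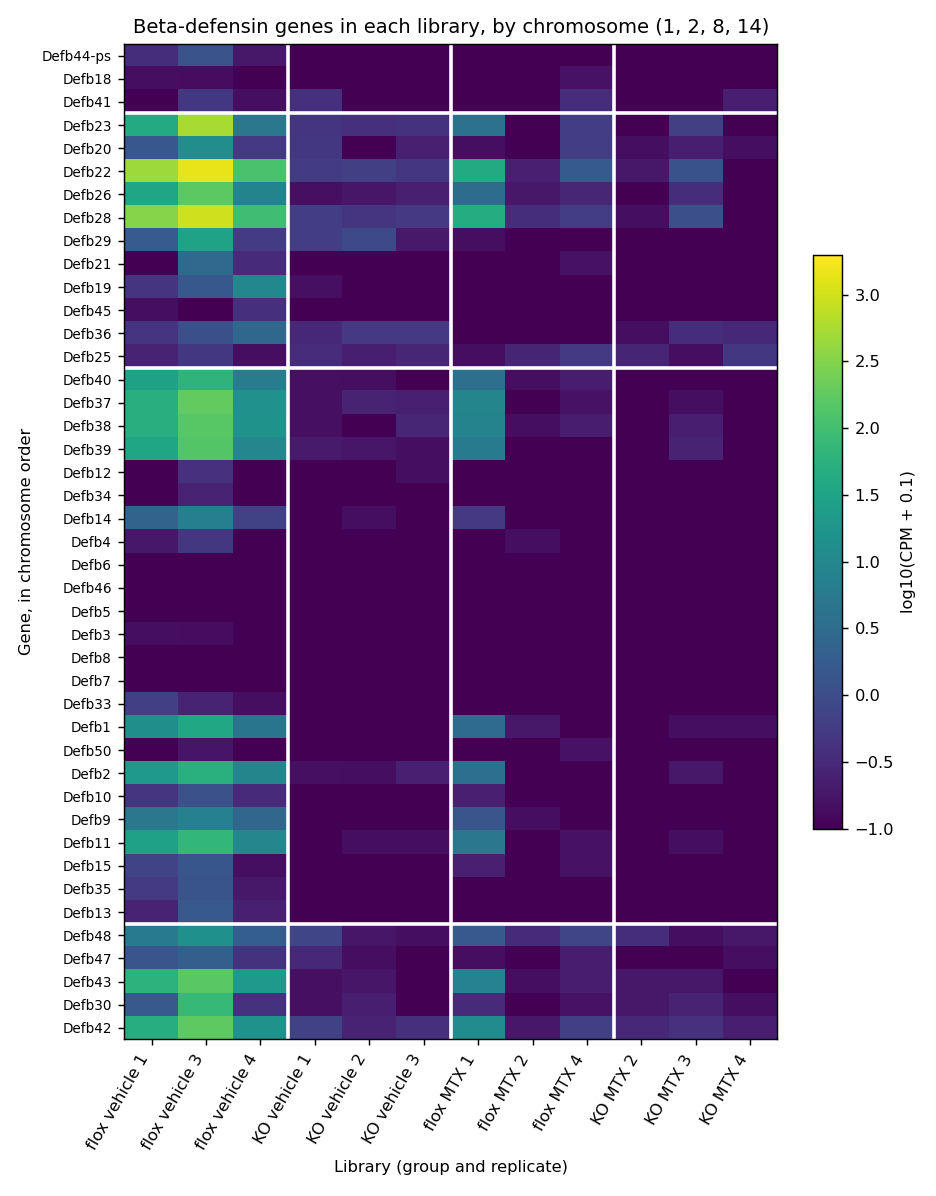
Level of each beta-defensin gene (rows, in chromosome order, with white lines between chromosomes 1, 2, 8 and 14) in each library (columns, with white lines between groups), coloured by log10 of CPM plus 0.1. The 3 flox vehicle columns and flox MTX replicate 1 carry most of the colour, with dark rows for the 5 members at 0 in all 12 libraries.

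The chromosome 2 members took the larger part of the transcripts. Defb22 had 10826, 37284 and 2569 counts in flox vehicle replicates 1, 3 and 4, against 9, 13 and 8 in the KO vehicle libraries, 895, 3 and 25 in flox MTX replicates 1, 2 and 4, and 2, 26 and 0 in KO MTX replicates 2, 3 and 4. The flox vehicle values did not overlap with those of the KO vehicle mice. Its mean of 683 ± 697 CPM under vehicle in flox mice stood against 0.459 ± 0.0879 CPM in KO mice (n = 3 each), and the ratio of the groups' summed counts, each scaled by library size, was 1559 with a 95% counting interval of 1092 to 2311. That ratio was 647 without flox vehicle replicate 3. Defb28 was next, with 7499, 24836 and 2107 counts in flox vehicle, 10, 8 and 9 in KO vehicle, 988, 6 and 8 in flox MTX and 1, 24 and 0 in KO MTX libraries. It had more counts than Defb22 in flox MTX replicate 1 and fewer in each flox vehicle library. Defb23, which with Defb26 and Defb42 has been tied to sperm motility, had 993, 13769 and 107 counts in flox vehicle, 7 in each KO vehicle library, 83, 0 and 8 in flox MTX and 0, 13 and 0 in KO MTX libraries. Defb26 had 816, 4168 and 185 counts in flox vehicle, 1, 2 and 3 in KO vehicle, 68, 2 and 3 in flox MTX and 0, 6 and 0 in KO MTX libraries. Both genes were disproportionately high in flox vehicle replicate 3.

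On chromosome 14, Defb42 had 1109, 4420 and 343 counts in flox vehicle, 12, 4 and 6 in KO vehicle, 247, 2 and 9 in flox MTX and 5, 7 and 3 in KO MTX libraries. It was counted in every library. Its gene overlaps that of Defb30 on the opposite strand, though their exons do not overlap. Defb43 had 1390, 3987 and 441 counts in flox vehicle, 1, 2 and 0 in KO vehicle, 172, 1 and 2 in flox MTX and 2, 2 and 0 in KO MTX libraries, and so did not pass 3 counts in any of the 8 low libraries. The chromosome 8 genes Defb37, Defb38, Defb39 and Defb40, which are known as epididymal members, sit side by side. Defb37 had 1174, 4711 and 317 counts in flox vehicle, 1, 4 and 3 in KO vehicle, 192, 0 and 1 in flox MTX and 0, 1 and 0 in KO MTX libraries. Defb38 had 1192, 3918 and 347 counts in flox vehicle, 1, 0 and 4 in KO vehicle, 173, 1 and 2 in flox MTX and 0, 3 and 0 in KO MTX libraries. These neighbours thus scaled together over the 4 libraries where they were high. Defb39 had 777, 3532 and 210 counts and Defb40 657, 1616 and 139 counts in flox vehicle replicates 1, 3 and 4.

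Members known from epithelia outside the male tract were present at lower levels. Defb1 had 316, 909 and 99 counts in flox vehicle, 65 in flox MTX replicate 1 and at most 2 in any other library, and it was at 0 in all 3 KO vehicle libraries, so that its flox vehicle mean of 18.0 ± 16.0 CPM (n = 3) was at least 129-fold higher than the limit of 3 counts over that group. Defb14, an inducible member of skin and airway, had 52, 178 and 13 counts in flox vehicle and 9 in flox MTX replicate 1. Defb4, another inducible member, had 2, 10 and 0 counts in flox vehicle and 1 in flox MTX replicate 2. All 3 were therefore highest in the same library as the sperm-coating members. Defb2, Defb9, Defb10 and Defb11 share part of their exon sequence with each other (9.96% to 20.7% of 50-base windows), so that reads could be divided among them. Defb11 had 669, 1813 and 210 counts and Defb2 471, 1354 and 197 counts in flox vehicle, whereas Defb9 had 117, 193 and 54 and Defb10 8, 27 and 5. Defb4 and Defb8, and Defb12 and Defb35, share smaller parts of their exons in the same way (3.14% to 9.66%).

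Of the remaining members, Defb21 had 72 counts in flox vehicle replicate 3, and Defb13, Defb15, Defb35 and Defb44-ps had 38, 33, 31 and 30 counts there. Defb33 differed in being highest in flox vehicle replicate 1, with 13, 4 and 1 counts in replicates 1, 3 and 4. The exon of Defb15 overlaps a gene on the other strand, Gm36879, and since the strand setting of the counting is not given, reads of the pair cannot be told apart.

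Levels of different members can be compared per length of exon. On this scale Defb28 was first, with a mean of 1172 CPM per kb over the 3 flox vehicle libraries, followed by Defb22 at 1088 and Defb23 at 314, and then by Defb38 at 258, Defb39 at 241, Defb37 at 237 and Defb43 at 194. Defb28 lay above Defb22 in each flox vehicle library, with 818.5 against 747, 2454 against 2329 and 245 against 189 CPM per kb, whereas the order of Defb38, Defb39 and Defb37 changed between libraries. Defb23 held its rank only through flox vehicle replicate 3: its 69.0, 866 and 7.90 CPM per kb fell below Defb38 in the other 2 libraries. Defb42 dropped to 32.6 CPM per kb. Lengths here are of all annotated exons of a gene merged, which came to 2425 bases for Defb42. The transcript used for its coding stretch has 618 bases, so its place on this scale depends on the annotation. Defb1 stood at 20.6 and Defb14 at 16.1, so the leading members exceeded those of other epithelia within the same libraries.

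**Figure D3:**
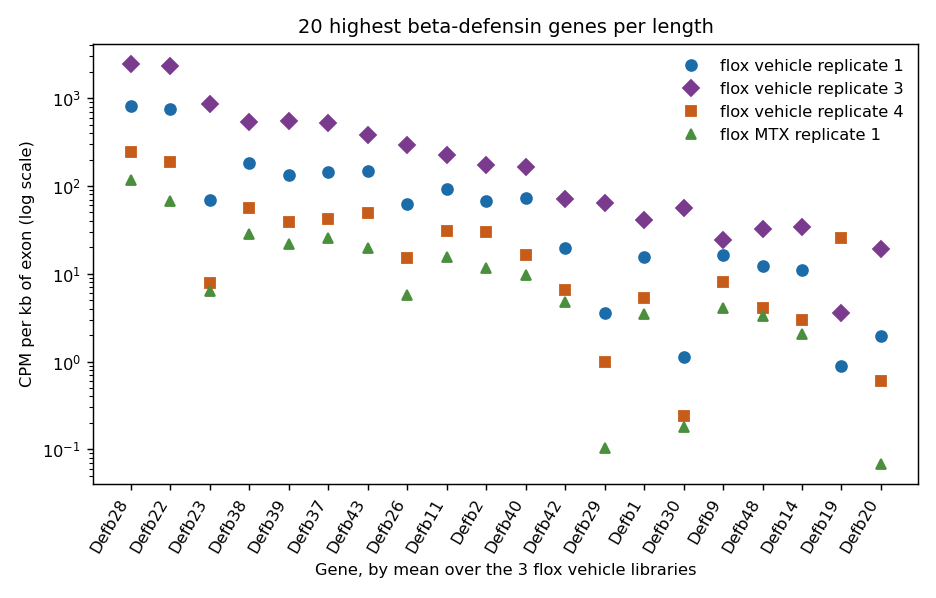
Level in CPM per kb of exon (log axis) of the 20 members with the highest flox vehicle mean, for the 3 flox vehicle libraries and flox MTX replicate 1. Points at 0 are not drawn. The 4 libraries run nearly parallel for most genes, while Defb23, Defb29, Defb30 and Defb20 rise in flox vehicle replicate 3 and Defb19 in flox vehicle replicate 4.

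The 3 flox vehicle mice differed widely in amount. Of the 35 members detected in them, 30 had their highest level of all 12 libraries in replicate 3. In 27, the flox vehicle mice followed the order replicate 3, replicate 1, replicate 4. Defb22 was 12.35 times and Defb28 10.03 times as high in replicate 3 as in replicate 4 on the CPM scale. The make-up of the family was more alike: Defb22 took 38.1% of the family's counts in replicate 1 (95% binomial interval 37.6 to 38.7, exact), 33.8% in replicate 3 and 33.3% in replicate 4. The chromosome 2 genes together took 71.2%, 73.6% and 68.4%, the chromosome 8 genes 19.3%, 16.6% and 20.7%, and those of chromosome 14 9.47%, 9.73% and 10.9%. In flox MTX replicate 1, the corresponding shares were 60.9%, 25.5% and 13.6%, and the leading member was Defb28 with 29.6% (28.0 to 31.1). Its 17 detected members had a median share 1.29 times that in flox vehicle replicate 1, within a range of 0.702 for Defb22 to 2.07 for Defb48. Across those members, log2 CPM in flox MTX replicate 1 had a Pearson correlation of 0.977 with flox vehicle replicate 1, 0.988 with replicate 4 and 0.778 with replicate 3. These correlations are across genes, which are not independent replicates.

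Some members departed from this common make-up. In flox vehicle replicate 3, the share of Defb30 was 14.2 times that in replicate 1 (1929 counts against 35), that of Defb29 5.10 times (753 against 38), that of Defb23 3.57 times and that of Defb20 2.77 times (334 against 31), while the median over 29 members was 0.852. Defb21, with 72 counts there, had 0 counts in replicate 1. All of these but Defb30 lie in the chromosome 2 group, but that depends on where the list is cut. The next highest ratio was 2.44, for Defb13 on chromosome 8 (38 counts against 4). Defb12 and Defb34 on chromosome 8 and Defb41 on chromosome 1, with 8, 4 and 10 counts there, also had 0 in replicate 1. In flox vehicle replicate 4 the departures were other genes. Defb19, known from the testis, had 216 counts there against 8 and 36 in replicates 1 and 3, so that its share was 99.4 times that in replicate 1. Defb36, which lies close to it on chromosome 2, had 59 counts against 8 and 26, or a share 27.2 times as high. The Leydig cell hormone gene Insl3 was also highest in this library, at 120 CPM against 2.69 and 5.85 CPM in replicates 1 and 3, whereas the sperm nuclear protein gene Prm2 was at 52.0 CPM against 269 and 116. The part of testis RNA in the Defb19 and Defb36 values was not tested.

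**Figure D4:**
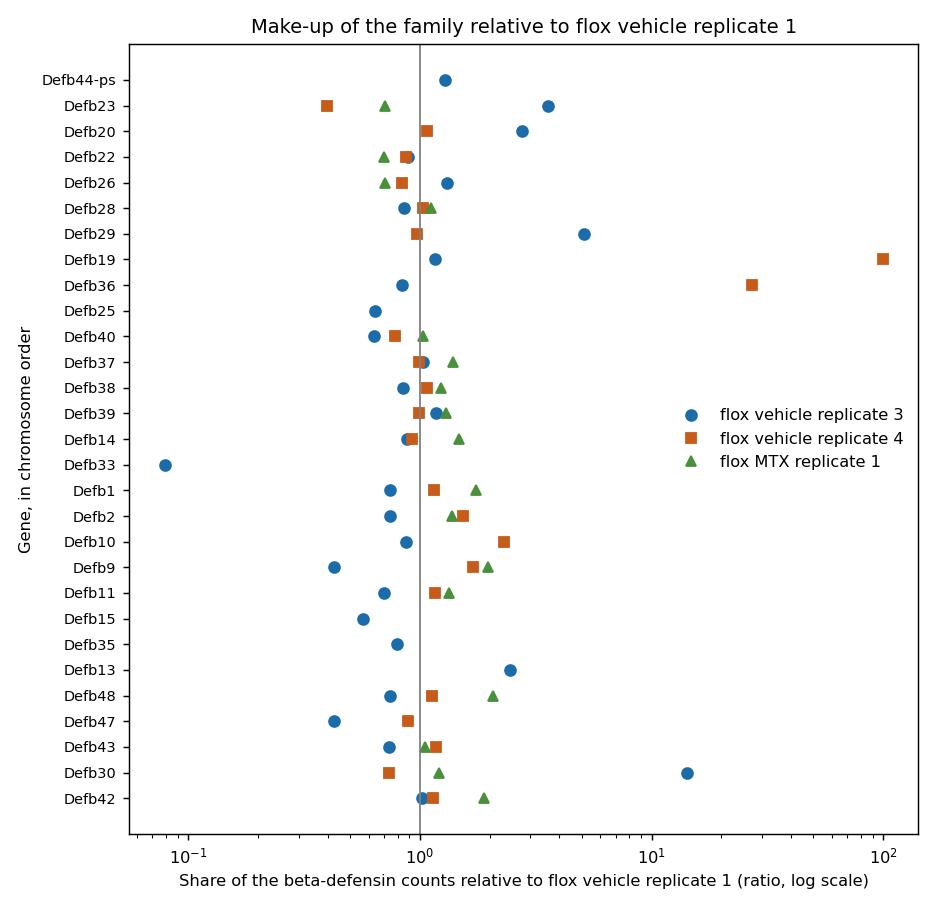
Each member's share of the family's counts relative to its share in flox vehicle replicate 1 (log axis, line at 1), for members with more than 3 counts in both libraries. Most points lie near the line. Defb30 and Defb29 in flox vehicle replicate 3 and Defb19 and Defb36 in flox vehicle replicate 4 lie to its right, and Defb33 to its left.

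In the other 8 libraries the family summed to 530 counts over 30 members, 24 to 105 counts in a library. Defb22 and Defb28 were again the most counted, with 86 and 66 counts, and their ratio (Defb28 to Defb22) was 0.767 there against 0.680 in the flox vehicle libraries. Several members were not scaled down with them. Defb25 had 4, 10 and 1 counts in flox vehicle, 5, 3 and 4 in KO vehicle, 1, 4 and 7 in flox MTX and 4, 1 and 9 in KO MTX libraries, and so made up 6.98% of the trace but 0.0102% of the flox vehicle counts. Its ratio of flox to KO under vehicle was 1.15, with a counting interval of 0.504 to 2.70. Defb36 had 8, 26 and 59 counts in flox vehicle, 4, 10 and 9 in KO vehicle, 0 in all 3 flox MTX libraries and 1, 6 and 5 in KO MTX libraries. Defb48 had 127, 365 and 39 counts in flox vehicle, 14, 2 and 1 in KO vehicle, 31, 5 and 11 in flox MTX and 6, 1 and 2 in KO MTX libraries. Defb25 and Defb36 therefore overlapped between the flox vehicle and KO vehicle libraries, and Defb48 did not. Defb29 had 38, 753 and 10 counts in flox vehicle and 10, 19 and 2 in KO vehicle, with 1 count in all MTX libraries together. Defb20 had 31, 334 and 9 counts in flox vehicle, 8, 0 and 3 in KO vehicle, 1, 0 and 8 in flox MTX and 1, 3 and 1 in KO MTX libraries. Defb41 had 0, 10 and 1 counts in flox vehicle, 6, 0 and 0 in KO vehicle, 0, 0 and 4 in flox MTX and 0, 0 and 3 in KO MTX libraries. Defb29 and Defb41 overlapped between flox vehicle and KO vehicle mice. Defb20 was apart only by 0.415 CPM in flox vehicle replicate 4 against 0.403 CPM in KO vehicle replicate 1 (9 against 8 counts), which is within counting error. Of the rest, Defb30 had 35, 1929 and 7 counts in flox vehicle, 1, 3 and 0 in KO vehicle, 5, 0 and 1 in flox MTX and 2, 4 and 1 in KO MTX libraries. Defb39, with its flox vehicle counts given above, had 2, 2 and 1 counts in KO vehicle, 118, 0 and 0 in flox MTX and 0, 4 and 0 in KO MTX libraries. Defb47 had 29, 48 and 7 counts in flox vehicle, 4, 1 and 0 in KO vehicle, 1, 0 and 2 in flox MTX and 0, 0 and 1 in KO MTX libraries. Over the 12 libraries, the Pearson correlation of log2(CPM + 0.5) between a member and the sum of the others was 0.996 for Defb22, 0.993 for Defb28, 0.554 for Defb36, 0.252 for Defb41 and -0.0773 for Defb25. These values share the 4 high libraries and carry no test.

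The members were then placed in the 4 comparisons of the design, with edgeR's quasi-likelihood test, where a call needed a change of 1.5-fold or more and an adjusted p (Benjamini-Hochberg) under 0.1. Only 17 of the 43 members passed the filter on low counts, and they passed it through the flox vehicle libraries, so these counts describe what the rule had chosen and nothing is read from them. Between KO and flox mice under vehicle, the 17 were called lower in KO mice, beside 17.8% of the 18702 genes tested called lower and 13.9% called higher. For 26 of the 43 members, the lowest flox vehicle library lay above the highest KO vehicle library, as it did for 13.1% of all 49315 genes, an order that the choice of members had also set. Between MTX and vehicle in flox mice, the 17 were also called lower with MTX, beside 16.1% of genes called lower and 8.09% called higher. The adjusted calls rest on flox vehicle replicate 3. Without it, 2 of 17 members were called lower, beside 9.63% of the 19024 genes then tested. In that fit 16 of the 17 members, and 4519 of the 19024 genes, had an unadjusted p below 0.05. The same flox vehicle libraries enter both comparisons. With library size as the only scaling, the median log2 change of all genes under MTX in flox mice moved by -0.20 and the split of calls from 1513 higher and 3015 lower to 766 higher and 3607 lower, while the 17 members stayed called lower, as they also did with relative log expression factors.

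Between KO and flox mice under MTX, no member was called by edgeR (0 of 17, beside 0% of all genes), with 13 members and 4576 genes at an unadjusted p below 0.05. DESeq2 called 11 of 17 members lower in KO mice, beside 9% of 16493 genes. When flox MTX replicate 2 was left out, edgeR called 12 of 23 members lower, beside 10.2% of 19532 genes. The rule had named flox MTX replicate 1 as high, so nothing is read from these counts either. In this comparison the flox MTX values were split, with Defb22 at 42.2 CPM in replicate 1 against 0.136 and 1.56 CPM in replicates 2 and 4, and at 0.0869, 1.13 and 0 CPM in the KO MTX mice, so the groups overlapped. Between MTX and vehicle in KO mice, edgeR called no member (0 of 17, beside 0% of all genes), with 1 member and 1491 genes at an unadjusted p below 0.05, and DESeq2 called 0 members, beside 1.23% of 18669 genes called lower. Both of these groups were at trace level: Defb22 had 0.453, 0.550 and 0.374 CPM in the KO vehicle libraries.

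Other genes of the epididymal epithelium were high in the same libraries. For a list of 37 secreted epididymal proteins, the sum was 6272, 17690 and 2069 CPM in replicates 1, 3 and 4 of the flox vehicle group and 751 CPM in flox MTX replicate 1, against 14.5 to 60.2 CPM in the other 8 libraries. Crisp1, a sperm-binding protein, led it with 3746, 9176 and 1163 CPM in flox vehicle, 399 CPM in flox MTX replicate 1 and at most 9.87 CPM elsewhere. The beta-defensin sum was 0.196, 0.245, 0.172 and 0.210 of the epididymal sum in those 4 libraries and 0.0590 to 0.140 of it in the others, where 6 to 23 of the 37 genes had more than 3 counts. The epididymal sum differed in make-up between them. In KO vehicle replicate 2 it was 60.2 CPM, of which Crisp1 gave 3.43, Adam7 1.06 and Spink8 0.973 CPM. The lower ratios are therefore not read as a change relative to the leading epididymal genes. Under vehicle, 18 of the 37 genes were called lower in KO mice, of 24 tested, and with MTX in flox mice 18 were called lower, or 5 without flox vehicle replicate 3. None was called higher in KO mice under vehicle. Some tested genes of the list had a positive log2 change there without a call: Gpx5 (0.433), Lcn8 (0.238), Rnase10 (0.770) and Ly6g5b (0.570). Among genes outside the family with at least 10 CPM on average in flox vehicle (10197 genes), those whose log2(CPM + 0.5) followed the family's sum most closely over the 12 libraries were Adam7 (Pearson r = 0.997), Ces5a (0.997), Spink8 (0.997), Wfdc10 (0.997) and Wfdc16 (0.995). Adam7, which encodes a membrane protein of sperm that the epididymis makes, had 597.5, 1606 and 244 CPM in flox vehicle replicates 1, 3 and 4, 64.3 CPM in flox MTX replicate 1 and at most 2.5 CPM elsewhere. Ces5a had 782, 1980 and 278 CPM, 67.0 CPM and at most 1.625 CPM in the same order, and Spink8 1064, 3166 and 363 CPM, 138 CPM and at most 2.87 CPM. Wfdc10 had 190, 627 and 62.2 CPM, 25.5 CPM and at most 0.604 CPM, and Wfdc16 319, 826 and 107 CPM, 33.2 CPM and at most 0.687 CPM. Over the 4 high libraries all 5 had the family's order, with flox vehicle replicate 3 highest. Picking them by this correlation had set that likeness, so nothing is read from it. In all, 172 genes had r above 0.95. Spag11a, a beta-defensin-like gene next to the chromosome 8 cluster, had 3.60, 17.3 and 1.15 CPM in flox vehicle and 0.661 CPM in flox MTX replicate 1, whereas Spag11b was at most 1.18 CPM in any library. One of these 2 genes was called lower in KO mice under vehicle, and 1 with MTX in flox mice (0 without flox vehicle replicate 3).

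Cell type markers moved with the family in the same 4 libraries to different degrees. Of 14 epithelial genes, 13 were called lower in KO mice under vehicle and 12 lower with MTX in flox mice. Their sum was 484 to 2113 CPM in flox vehicle, 142 CPM in flox MTX replicate 1 and 24.2 to 99.0 CPM in the other libraries, and Epcam, the epithelial adhesion molecule, had 90.6, 242 and 43.8 CPM in flox vehicle replicates 1, 3 and 4. Foxi1, the transcription factor of acidifying clear and narrow cells, had 11.7, 22.1 and 2.72 CPM there, 0.755 CPM in flox MTX replicate 1 and at most 0.0468 CPM elsewhere, although the sum of that 7-gene list was led by Atp6v0d2, which macrophages also express, and was 10.1 to 407.5 CPM in the other 8 libraries. Of its 6 tested genes, 4 were called lower and 1 higher in KO mice under vehicle, and 4 lower with MTX in flox mice. Basal cell genes summed to 21.2 to 74.5 CPM in flox vehicle, 7.27 CPM in flox MTX replicate 1 and 2.33 to 8.12 CPM elsewhere, with all 4 tested of 5 called lower in KO mice under vehicle and 3 lower with MTX in flox mice, and Krt5 was at 9.88, 24.7 and 9.86 CPM in flox vehicle. Among transcription factors of the duct, Ehf had 72.3, 160 and 32.0 CPM in flox vehicle, 10.8 CPM in flox MTX replicate 1 and at most 3.81 CPM in the 8 low libraries. Pax8 had 59.8, 149 and 19.8 CPM, 6.28 CPM and at most 3.34 CPM in the same order, and Pax2 45.7, 114 and 15.7 CPM, 6.14 CPM and at most 0.889 CPM. Ehf, Pax8 and Pax2 were called lower and Cebpb and Runx2 higher in KO mice under vehicle, and with MTX in flox mice Ehf, Pax8, Pax2 and Hnf4a were called lower and Cebpb higher. Without flox vehicle replicate 3, neither Cebpb nor Runx2 was called higher in either comparison, and 1 basal cell gene was called lower with MTX in flox mice.

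Testis markers were also present. Germ cell genes had sums of 638, 523 and 245 CPM in replicates 1, 3 and 4 of the flox vehicle group, an order that differed from that of the beta-defensins. They had 49.1 CPM in flox MTX replicate 1 and 15.9 to 43.1 CPM elsewhere, with 15 of 16 called lower in KO mice under vehicle and 14 lower with MTX in flox mice. In flox MTX replicate 1 Prm2 was at 0.283 CPM, within the range of the low libraries, whereas Crisp1 was at 399 CPM, so this library held epididymal transcripts without Prm2 at the flox vehicle level. Among the low libraries, KO MTX replicate 4 had the most Prm2, at 4.15 CPM, and 15 of the 16 germ cell genes had more than 3 counts there. Somatic testis genes summed to 65.1 to 189 CPM in flox vehicle, 17.0 CPM in flox MTX replicate 1 and 10.1 to 23.2 CPM elsewhere, with 3 of the 6 tested called lower in KO mice under vehicle and 4 lower with MTX in flox mice (9 genes in the list). Keratinocyte genes summed to 39.7 to 62.8 CPM in flox vehicle and 24.04 to 52.1 CPM in the 8 low libraries, so the ranges overlapped, and of the 2 that could be tested of 8, 1 was called lower in KO mice under vehicle and 0 with MTX in flox mice. Adipocyte genes summed to 34650 to 75570 CPM in flox vehicle and 20920 to 110100 CPM in the low libraries, with 2 of 15 called lower in KO mice under vehicle and 0 with MTX in flox mice. Mesothelial genes summed to 286 to 376 CPM in flox vehicle, 299 CPM in flox MTX replicate 1 and 155 to 559 CPM elsewhere, with 2 of 10 called higher and 1 lower in KO mice under vehicle, and 8 higher and 1 lower with MTX in flox mice. The 2 mesothelial genes became 0 without flox vehicle replicate 1 or 3 and 5 without replicate 4, and the 2 adipocyte genes 6 without replicate 3 and 1 without either of the others.

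Other antimicrobial genes did not share the pattern as a group. Their sum was 648 to 868 CPM in flox vehicle, 1416 CPM in flox MTX replicate 1 and 621 to 3558 CPM in the other 8 libraries. Of the 22 genes 15 could be tested. Under vehicle 4 were called higher in KO mice and 3 lower, and with MTX in flox mice 9 were called higher (4 without flox vehicle replicate 1, 3 without replicate 3) and 3 lower. Lyz2, the macrophage lysozyme, had 317, 222 and 491 CPM in flox vehicle and 1535, 1554 and 2329 CPM in KO vehicle libraries, the reverse direction. Lyz2 gave most of the list's sum in KO vehicle (1738, 1744 and 2537 CPM) and a smaller part in flox vehicle (737, 648 and 868 CPM). The direction of the sum between these groups therefore rests on this gene, which is also in the macrophage list. Ltf, which encodes the iron-binding lactoferrin of secretions and neutrophils, had 301, 311 and 199.5 CPM in flox vehicle, at most 0.805 CPM in KO vehicle and 48.4, 9.58 and 3.25 CPM in flox MTX libraries. It accounted for most of the neutrophil sum of 214 to 322 CPM in flox vehicle, against 17.0 to 94.3 CPM in the 8 low libraries, where 6 of its 10 genes could be tested, 2 of them called lower and 1 higher in KO mice under vehicle, and 1 lower and 4 higher with MTX in flox mice. S100a8, a defining neutrophil gene, was at 2.60, 9.53 and 13.6 CPM in flox vehicle and 35.5, 18.3 and 19.7 CPM in KO vehicle libraries. The alpha-defensins, the related family of gut Paneth cells, were at 0 in all flox vehicle libraries and in flox MTX replicate 1, and summed to at most 0.201 CPM elsewhere (17 genes). Of the 6 receptors and sensors known to respond to beta-defensins, 5 could be tested, and 3 were called higher in KO mice under vehicle and 4 higher with MTX in flox mice. Ccr2, a chemokine receptor of monocytes, had 13.3, 25.7 and 68.5 CPM in flox vehicle and 74.2, 44.2 and 63.7 CPM in KO vehicle libraries, which overlapped. Macrophage genes went the same way as Lyz2, with 15 of 16 called higher in KO mice under vehicle and 12 higher with MTX in flox mice (4 without flox vehicle replicate 3, when the 4 receptors became 1 and the 4 neutrophil genes 2). The part of tissue composition in any of these differences was not tested.

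Promoter sequence was described for the family, whose pattern over the libraries the rule had already named. RefSeq windows from 250 bases before to 50 bases after the annotated start (GRCm38.p6) matched 29 of the 43 members with 30 windows. Not matched were Defb1, Defb2, Defb4, Defb12, Defb14, Defb18, Defb19, Defb25, Defb34, Defb35, Defb37, Defb40, Defb44-ps and Defb50. The hexamer AGAACA, a half-site of steroid hormone response elements, was searched on both strands. It was present in 18 of 30 windows (60.0%) against 18.97% of 32851 windows of all genes. The same letters reversed, ACAAGA (both strands, a motif that can share bases with the first), were present in 10 of 30 (33.3%) against 14.6%. The windows of the family held a mean GC content of 47.4%, against 53.8% over all. The windows of 3 chromosome 2 members, each on the minus strand, are shown 5′ to 3′ with the AGAACA hexamer of either strand in capitals: Defb22 (chr2:152490089-152490388), Defb23 (chr2:152464571-152464870) and Defb26 (chr2:152511687-152511986).
Defb22: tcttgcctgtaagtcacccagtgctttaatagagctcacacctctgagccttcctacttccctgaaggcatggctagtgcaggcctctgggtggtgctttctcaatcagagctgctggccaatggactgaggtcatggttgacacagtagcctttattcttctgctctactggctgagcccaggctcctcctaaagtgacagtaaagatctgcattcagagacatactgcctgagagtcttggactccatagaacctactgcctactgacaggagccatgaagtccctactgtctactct
Defb23: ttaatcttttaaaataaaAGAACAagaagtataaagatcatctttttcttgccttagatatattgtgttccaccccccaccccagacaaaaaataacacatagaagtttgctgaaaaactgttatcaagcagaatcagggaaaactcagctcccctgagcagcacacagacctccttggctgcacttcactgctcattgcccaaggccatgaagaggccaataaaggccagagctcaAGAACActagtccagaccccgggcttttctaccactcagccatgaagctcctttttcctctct
Defb26: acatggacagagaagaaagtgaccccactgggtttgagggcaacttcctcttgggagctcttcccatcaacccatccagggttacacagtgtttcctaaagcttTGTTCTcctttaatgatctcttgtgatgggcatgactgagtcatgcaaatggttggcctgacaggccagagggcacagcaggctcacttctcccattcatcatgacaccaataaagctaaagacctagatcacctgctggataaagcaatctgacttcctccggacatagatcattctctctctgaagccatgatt
Defb22, the most counted member, had no match, Defb23 had matches at -232 and -13 and Defb26 had 1 at -146 relative to the start. Defb28 and Defb42 had none. Of the 5 members at 0 counts in all libraries, Defb8 had 2 matches, Defb7 and Defb46 had 1 each, and Defb5 and Defb6 had none. Windows of related members can be similar in sequence, as those of Defb3 and Defb46 are, so the 30 windows are not independent. A match describes these letters only and does not show binding.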

How the data were processed

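Counts per gene were deposited by the authors, who trimmed reads (Trimmomatic 0.36), aligned them to GRCm38 with STAR 2.5.2b and counted them with featureCounts of Subread 1.5.2 on Ensembl genes (tool names and versions from the submitters' processing notes). The counts are whole reads with no normalization. The strand setting and the handling of reads mapped to several places are not given in the sources used here. Symbols, coordinates and coding sequences were taken from GENCODE M21 (GRCm38). Genes without a symbol (345) held 0.0688% of the counts.

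CPM were scaled with TMM factors. The count test was the quasi-likelihood test of edgeR 4.0.16 under R 4.3.3 (filterByExpr by group, 1 coefficient per group over 12 libraries, glmQLFit and glmQLFTest, Benjamini-Hochberg over 18702 genes). P-values measure the spread between mice of 3 per group. Intervals on shares are exact binomial (Clopper-Pearson) and those on ratios come from the counts, and all cover counting error only. Each choice was also changed in turn: the tool (DESeq2 1.42.0), the scaling (RLE or none), the filter (none, or 10 counts in all libraries), a block for replicate number, a fit on 6 libraries only, the limit of detection, and each library left out. The procedure was tested on simulated counts for KO against flox under vehicle, with 200 of 18702 genes changed 4-fold: 181 were called, with 15 unchanged genes. The simulated counts had the same dispersion in all genes and groups. The flox vehicle mice varied far more in these members, so the simulation checks the code and gives no error rate for these data.

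No 2 libraries of a group were duplicates (the lowest chi-square per degree of freedom over 12 pairs was 12.9). The members and gene lists were chosen with earlier results of these data known. Values in every library are given for the 8 members with the largest summed flox vehicle count, members over 3 counts in any KO library or in flox MTX replicates 2 and 4, and members beside that limit, and summed levels or ranges over libraries for the others; up to 4 genes per list with the largest flox vehicle levels and the 5 genes most alike could be named; some results of the transcription factor list are not reported here. Departing members were singled out after their values were seen.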

Additional observations from a re-analysis of the deposited data

How the results depend on the processing

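With RLE factors, or with no factor beyond library size, the number of members called was as given in all 4 comparisons. With no filter on low counts, 28 of 38 members were called lower both in KO against flox mice under vehicle and with MTX in flox mice. Beside them, 4056 and 3729 of 34653 genes were called lower. With at least 10 counts in every library no member could be tested, so that setting gives no value. DESeq2 called 11 members lower in KO against flox mice under MTX, beside 1484 of 16493 genes. The 6 libraries of the comparison alone left 4 members called lower with MTX in flox mice, beside 1900 of 17805 genes. In KO mice that setting tested no member. Leaving out each library in turn gave 16 to 23 members for KO against flox under vehicle, 0 to 12 for KO against flox under MTX (12 without flox MTX replicate 2), 2 to 22 for MTX against vehicle in flox mice (2 without flox vehicle replicate 3) and 0 to 0 in KO mice. Over the same fits and in the same order, 2647 to 3935, 0 to 1985, 1832 to 3797 and 0 to 213 of all genes were called lower. A left-out library also lets more members pass the filter. The replicate number as a block called 16, 0, 14 and 0 members lower in the 4 comparisons, beside 2997, 0, 2199 and 0 of 18702 genes. Residual correlations of the 12 same-number pairs had a median of 0.0353 (-0.273 to 0.254) against 0.0112 in 42 other pairs. No pairing by these numbers was seen, but so few pairs with so wide a range cannot exclude one. With library size as the only scaling, the median log2 change of all genes in KO against flox mice under MTX moved by 0.17. Limits of at least 1 and at least 10 counts in place of more than 3 gave 20 and 4 members in KO vehicle replicate 1, 18 and 3 in replicate 2 and 16 and 0 in replicate 3. They gave 12 and 0 in flox MTX replicate 2, 20 and 2 in replicate 4, and 9 and 0, 17 and 3 and 9 and 0 in KO MTX replicates 2, 3 and 4. Of the main values, 102 alternatives stayed within their limits and 22 moved. The cause of these changes was not tested. Depth limits statements on the 8 low libraries, where a member's value is a few counts.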
